A study of Homo sapiens with 6 samples.

Results

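The 10 genes described here belong to the Hippo pathway and its transcriptional output. They are the DNA-binding factors TEAD1, TEAD2, TEAD3 and TEAD4, the co-activators YAP1 and WWTR1 (which encodes TAZ), the kinases LATS1, LATS2 and STK3, and the scaffold AMOTL2. They were chosen by name from the pathway, with summed estimated counts of these same libraries already known, so their values are a description. All 10 of the 10 genes reached a mean of 50 counts over the libraries and were measured, among 11909 genes that did so of 52992 with a matched transcript. Transcript counts were also examined for each gene, and TEAD1 in particular.

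RNA was profiled in J82 cells, an established line from a human bladder cancer, as 2 derived lines that differ in their doxycycline-inducible construct. The tet-control line was sampled without doxycycline (0 h) and after 6 and 24 h with doxycycline at 1 µg/mL. The tet-ZFP36L1 line, in which doxycycline induces the RNA-binding protein ZFP36L1, was sampled at the same 3 times, giving 6 groups of 1 library each. The labels do not say how many clones either line derives from. No group had a replicate, so differences between groups carry no p-value. Intervals below are 95% intervals of counting error only, and variation between cultures is not in them.

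The libraries held 20739025 to 21380480 estimated counts. ZFP36L1 itself stood at 206.0 to 233.8 CPM (counts relative to library size, with TMM scaling between libraries) in the 3 tet-control libraries and at 220.2 CPM in uninduced tet-ZFP36L1. With doxycycline for 6 h it reached 3127 CPM and for 24 h 3133 CPM, so the induced gene follows the labels. Of 12 epithelial and urothelial markers, 6 stayed below 1 CPM in every library. KRT8 and KRT18 lay between 258.4 and 763.8 CPM, while the urothelial plaque genes UPK2 and UPK3A were at 0. Leukocyte markers summed to less than 1 CPM in each library, and so did endothelial markers when summed on their own. The endothelial marker PECAM1 had no matched transcript and is not in that sum. The lines were not alike before doxycycline: the mesenchymal marker FN1 stood at 381.9 CPM in tet-control and 9908 CPM in uninduced tet-ZFP36L1. The 4 mesenchymal markers summed to 1210 to 1653 CPM in the tet-control libraries and to 3593 to 13658 CPM in those of tet-ZFP36L1. Most of each tet-ZFP36L1 sum was FN1, at 9908, 11892 and 2657 CPM at 0, 6 and 24 h. CDH2 was also higher than in tet-control at each time, but VIM was lower at 24 h (787.4 against 877.2 CPM). ZEB1 was lower in tet-ZFP36L1 at 6 h (27.3 against 36.1 CPM) and 24 h (21.2 against 28.95 CPM). After 24 h of doxycycline, the tet-ZFP36L1 library had the largest TMM factor, 1.115 against 0.941 to 1.006 elsewhere.

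The Hippo pathway is a kinase cascade in which the MST kinases (STK4 and STK3) activate LATS1 and LATS2, which in turn phosphorylate YAP and TAZ. Phosphorylated YAP and TAZ are held in the cytoplasm or degraded, whereas the unphosphorylated proteins enter the nucleus and bind TEAD factors to switch on growth and matrix genes. AMOTL2 and LATS2 are themselves targets of YAP, TAZ and TEAD and restrain them, forming negative feedback. ZFP36L1 binds AU-rich elements in the 3' untranslated region of mRNAs, of which the 7-base word TATTTAT is a common core, and promotes their decay.

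Because ZFP36L1 binds such elements, the annotated 3' untranslated regions of the genes were searched for TATTTAT on the transcript's strand (GENCODE 29 on GRCh38, whereas the submitters' notes name hg19). Of 10648 measured protein-coding genes whose searched 3' untranslated region had at least 50 bases, 27.8% held at least 1 copy and 10.4% held 2 or more. The median length of those regions was 867 bases, and a longer region has more places for the word. Regions searched in TEAD1, LATS1, LATS2, AMOTL2, TEAD3 and STK3 were longer, at 7261, 3576, 1838, 1828, 1447 and 1209 bases. Those of TEAD2, WWTR1, TEAD4 and YAP1 were shorter. These shares are not adjusted for length. In the coding transcript with the highest mean TPM (the deposited value, relative to transcript length and library size), TEAD1 held 2 copies, TEAD2, TEAD3, LATS1 and LATS2 held 1 each, STK3 held 3, and TEAD4, YAP1, WWTR1 and AMOTL2 held 0. For YAP1 that transcript has an annotated 3' untranslated region of only 23 bases, below that minimum. For WWTR1 it was a short one of 584 bases. WWTR1-203, which held 62.9% to 73.8% of the gene's estimated counts in each library, carries 3 copies in a 3' untranslated region of 3570 bases. The STK3 transcript searched has another length in the deposited tables than in GENCODE 29. In the longest annotated 3' untranslated regions STK3 held 1 copy, and YAP1, TEAD4 and AMOTL2 again held 0. Apart from those of STK3, the sites are printed here because they are the sequence through which the induced protein could meet these mRNAs. The word is in capitals, with up to 11 bases on either side within the 3' untranslated region. No site was tested for binding here.

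TEAD1, TEAD1-203, 8 bases after the stop codon, chr11:12937223-12937247, plus strand: acatggtTATTTATatatatagata
TEAD1, TEAD1-203, 6261 bases after the stop codon, chr11:12943472-12943500, plus strand: tgaaatatttgTATTTATtgtcctacttc
TEAD2, TEAD2-204, 556 bases after the stop codon, chr19:49340751-49340779, minus strand: atataacgagaTATTTATaagtgggtgct
TEAD3, TEAD3-201, 1156 bases after the stop codon, chr6:35473871-35473899, minus strand: ccacctgtgggTATTTATgagtttcatat
WWTR1, WWTR1-203, 590 bases after the stop codon, chr3:149520198-149520226, minus strand: ttattagtctgTATTTATaaaggcacaca
WWTR1, WWTR1-203, 1681 bases after the stop codon, chr3:149519107-149519135, minus strand: tgaactaatatTATTTATaatctatgaat
WWTR1, WWTR1-203, 2805 bases after the stop codon, chr3:149517983-149518011, minus strand: tgataaggtgcTATTTATactatatttct
LATS1, LATS1-207, 2867 bases after the stop codon, chr6:149658845-149658873, minus strand: catatcaatagTATTTATaagatgtgttc
LATS2, LATS2-201, 1763 bases after the stop codon, chr13:20973090-20973118, minus strand: agtttaactatTATTTATtgatatatcat

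On the TPM scale, which allows levels of different genes to be compared, the co-activators had the highest means. WWTR1 had the highest mean over the 6 libraries, 103.2 TPM, but ranged from 29.8 to 163.1. YAP1 followed at a mean of 85.0 TPM and ranged only from 76.8 to 91.3, and WWTR1 was above it in all tet-control libraries and at 0 h in tet-ZFP36L1. In those libraries a short form of 584 bases, WWTR1-205, held 45.7% to 55.0% of WWTR1 TPM. The order differed between libraries: in tet-ZFP36L1 at 6 h, WWTR1 (42.8 TPM) was below AMOTL2 (47.8 TPM), and after 24 h, at 29.8 TPM, it was below TEAD4 (53.1 TPM) and AMOTL2 (38.1 TPM). AMOTL2 (mean 53.3 TPM, 38.1 to 73.6), TEAD4 (42.4 TPM, 35.5 to 53.1) and TEAD2 (31 TPM, 12.8 to 47.9) came next, with ranges that overlapped. The kinases were lower, with LATS2 at a mean of 17.1 TPM (13.2 to 20.9), LATS1 at 13.7 TPM (8.34 to 19.1) and STK3 at 9.64 TPM (7.24 to 11.6). TEAD1, at a mean of 5.10 TPM (2.62 to 8.66), and TEAD3, at 4.44 TPM (2.35 to 6.70), were the lowest of the 10. The plot of levels by library uses the CPM scale.

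**Figure D1:**
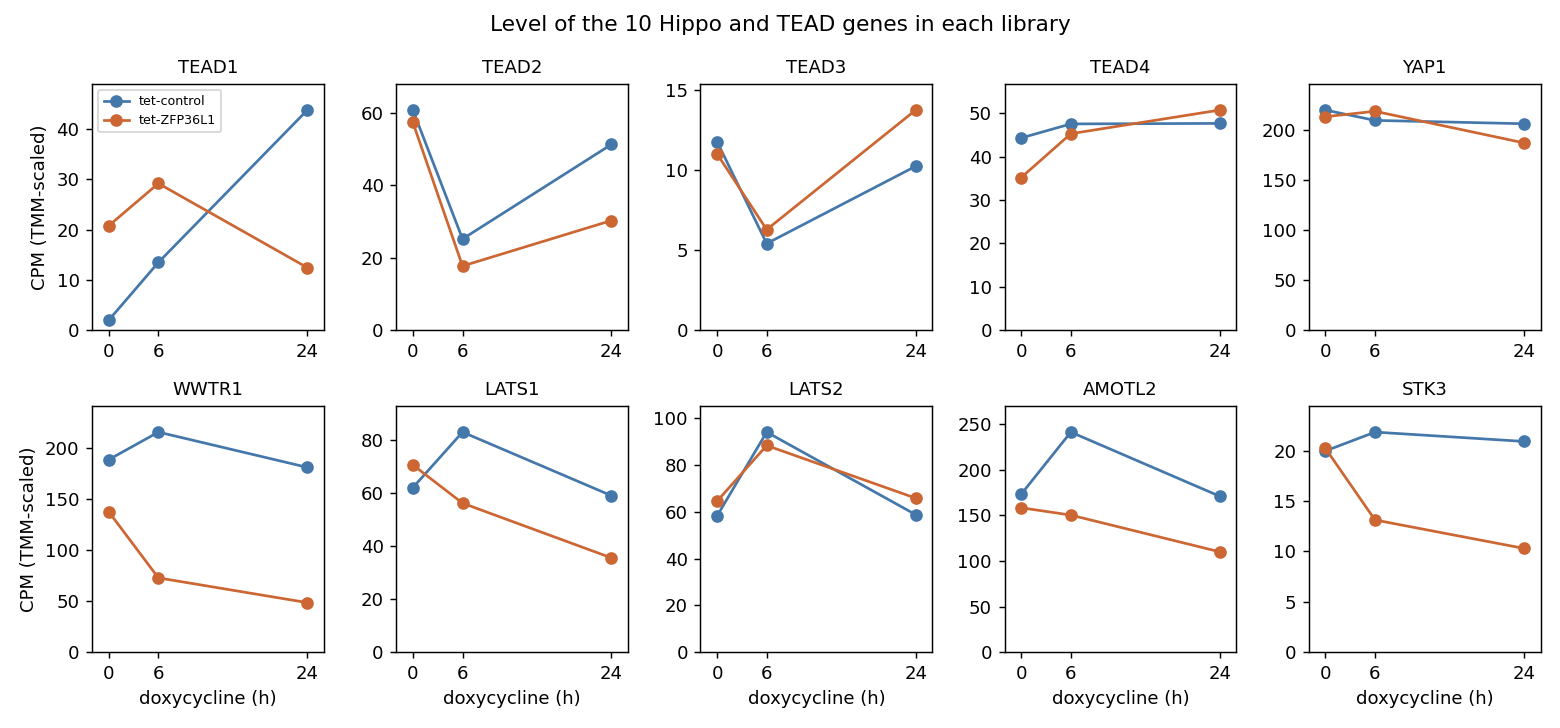
CPM (TMM-scaled, each vertical axis starts at 0) of the 10 genes against hours of doxycycline, with tet-control in blue and tet-ZFP36L1 in orange and 1 library per point. WWTR1 and STK3 were lower at 6 and 24 h in tet-ZFP36L1 while they stayed near their 0 h level in tet-control, TEAD2 and TEAD3 were low at 6 h in both lines, and TEAD1 was highest in tet-control at 24 h.

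The main comparison asked how the genes differed after induction of ZFP36L1 beyond the difference over the same hours in tet-control. It is given as the induction difference: the difference from 0 h within tet-ZFP36L1, less the same difference within tet-control, on log2(CPM + 0.5). No culture was sampled without doxycycline at 6 or 24 h, so within a line doxycycline and time cannot be told apart. In bulk RNA, fewer cells with an mRNA and less of it per cell cannot be told apart. TEAD1 and WWTR1 were lower by at least 2-fold at 6 h, and TEAD1, WWTR1 and STK3 were at 24 h. None of the 10 genes was higher by 2-fold at either time. At 6 h these were 2 of 10 genes lower and 0 higher, where 4.69% of all measured genes were lower and 1.60% higher by 2-fold. At 24 h they were 3 of 10 lower and 0 higher, where 6.50% of all genes were lower and 4.69% higher. The median of the 10 genes was -0.48 at 6 h and -0.59 at 24 h, and that of all measured genes was -0.01 and -0.02. With the TEAD1 transcript TEAD1-203 left out, as described below, the median of the 10 was -0.39 and -0.30. With the deposited TPM it was -0.28 and -0.41, and that of all genes was -0.02 and 0.10. Both times use the same 0 h libraries, so the values at 6 and 24 h are not independent of each other.

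**Figure D2:**
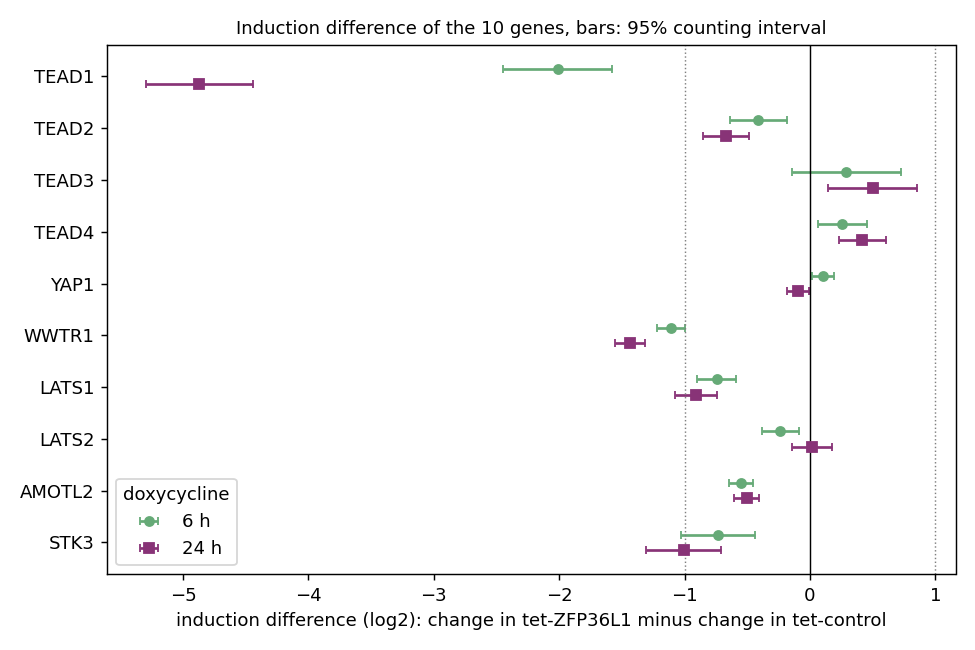
Induction difference (log2) of each gene at 6 h (green circles) and 24 h (purple squares), with bars for the 95% counting interval and dotted lines at 2-fold. TEAD1 lies farthest to the left at both times, at -2.01 and -4.87, and WWTR1 lies past the 2-fold line at both times, whereas YAP1 lies near 0.

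WWTR1 (ENSG00000018408; GRCh38 chromosome 3, 149517235 to 149736714, minus strand) encodes TAZ, the co-activator that binds TEAD factors alongside YAP. Its levels in tet-control were 188.3, 215.3 and 180.8 CPM after 0, 6 and 24 h. Those in tet-ZFP36L1 were 137.4, 72.7 and 48.5 CPM. All 3 tet-ZFP36L1 libraries were thus below all 3 tet-control libraries, and the level in tet-ZFP36L1 was lower at each later time. Within the line, 6 h differed from 0 h by -0.91 and 24 h by -1.49 on the log2 scale, against 0.19 and -0.06 in tet-control. The induction difference was -1.11 (-1.22 to -0.99) at 6 h and -1.43 (-1.55 to -1.31) at 24 h. Against tet-control at the same time, WWTR1 in tet-ZFP36L1 stood at -0.45 before doxycycline, -1.56 after 6 h and -1.89 after 24 h on the log2 scale. The value was past 2-fold under all 6 alternative scalings, pseudocounts and transcript sets at both times, from -1.37 to -1.06 at 6 h and from -1.67 to -1.26 at 24 h. The 4 mesenchymal markers had a median induction difference of -0.25 at 6 h and -0.80 at 24 h, against -0.01 and -0.02 for all measured genes. At 24 h FN1 was at -1.94, VIM at -1.05, ZEB1 at -0.55 and CDH2 at -0.43. Thus 2 of 4 were lower by 2-fold, where 6.50% of all genes were. The part of these markers in the values of WWTR1 and STK3 was not tested.

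The lower level of WWTR1 was seen in its main transcript. WWTR1-203, of 5030 bases, the form that carries the 3 TATTTAT words shown above, held 2539, 2552 and 2308 estimated counts in tet-control at 0, 6 and 24 h. It held 1860, 1035 and 667.2 in tet-ZFP36L1. A short transcript, WWTR1-205, annotated as a target of nonsense-mediated decay, held 443.9 to 539.9 estimated counts in tet-control and 286.4, 0.00 and 32.5 in tet-ZFP36L1. Estimated counts of single transcripts depend on how kallisto divides reads among overlapping forms.

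YAP1 (ENSG00000137693; GRCh38 chromosome 11, 102110461 to 102233423, plus strand), the paralog of TAZ, had the most even level of the 10 genes. It stood at 220.3, 210.0 and 206.6 CPM in tet-control and at 213.7, 219.1 and 187.5 CPM in tet-ZFP36L1. Its induction difference was 0.11 (0.02 to 0.19) at 6 h and -0.10 (-0.18 to -0.01) at 24 h. The sign was not stable to the scaling: the deposited TPM gave -0.16 at 6 h and plain CPM gave 0.08 at 24 h. The ratio of YAP1 to WWTR1 on the TPM scale was 0.611, 0.557 and 0.545 in tet-control and 0.927, 1.96 and 2.66 in tet-ZFP36L1. On that scale WWTR1 was the more abundant co-activator mRNA in every tet-control library and at 0 h in tet-ZFP36L1, and YAP1 in both induced libraries. Where WWTR1 led, the 584-base WWTR1-205 held 45.7% to 55.0% of its TPM but 10.2% to 13.9% of its estimated counts. The order there thus depends on how reads were assigned to that short form. On the CPM scale, not adjusted for length, YAP1 was above WWTR1 in every library but tet-control at 6 h (210.0 against 215.3 CPM).

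TEAD1 (ENSG00000187079; GRCh38 chromosome 11, 12674591 to 12944483, plus strand) encodes the founding member of the TEAD family. Its level in tet-control was 1.99, 13.5 and 43.8 CPM after 0, 6 and 24 h, from 40, 252 and 865 counts. That in tet-ZFP36L1 was 20.8, 29.2 and 12.4 CPM, from 423, 563 and 272 counts. The level thus differed most within the control line, where ZFP36L1 was not induced. Its difference from 0 h in tet-control was 2.49 (2.10 to 2.89) after 6 h and 4.16 (3.79 to 4.52) after 24 h on the log2 scale. The latter was the highest of the 11909 measured genes in that comparison, and the former ranked 10 from the highest. In tet-ZFP36L1 the corresponding values were 0.48 and -0.72. The induction difference of -2.01 (-2.45 to -1.58) at 6 h and -4.87 (-5.30 to -4.44) at 24 h therefore came mainly from the tet-control libraries. Set against tet-control at the same time, TEAD1 in tet-ZFP36L1 was at 3.10 (2.72 to 3.48) before doxycycline, 1.09 after 6 h and -1.77 after 24 h.

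Nearly all of this variation lay in a single transcript. TEAD1-203, of 8477 bases, has an annotated 3' untranslated region of 7261 bases (chromosome 11, 12937223 to 12944483), and it is the form that holds both TEAD1 sites shown above. It had 0.89, 199.0 and 819.5 estimated counts in tet-control at 0, 6 and 24 h. It had 394.1, 533.4 and 234.4 in tet-ZFP36L1. All other TEAD1 transcripts together held 39.2, 53.1 and 45.1 estimated counts in tet-control and 28.6, 29.4 and 37.4 in tet-ZFP36L1, a narrow range beside that of TEAD1-203. Of these, the 3075-base TEAD1-201 had 3.99 to 32.2, the retained-intron form TEAD1-202 had 14.6 to 20.7, and the short TEAD1-204 had 0.00 to 7.47 estimated counts per library. With TEAD1-203 left out, a choice made after seeing the data, the induction difference of TEAD1 was -0.36 at 6 h and 0.00 at 24 h. Of the 8447 words of 31 bases in TEAD1-203, 67.2% occur in no other annotated TEAD1 transcript, and 95.4% of those start in the 3' untranslated region. No TEAD1 word of that length occurred in a matched transcript of a gene outside the 10, and genes overlapping TEAD1 had at most 5 counts in any library. On the TPM scale, which divides the long form by its length, TEAD1 ranged from 2.62 TPM in tet-control at 0 h to 8.66 TPM at 24 h. With the deposited TPM the induction difference was -0.04 after 6 h and -1.98 after 24 h, so that TEAD1 was within 2-fold at the earlier time. A pseudocount of 5 also left it just within 2-fold there, at -0.996.

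**Figure D3:**
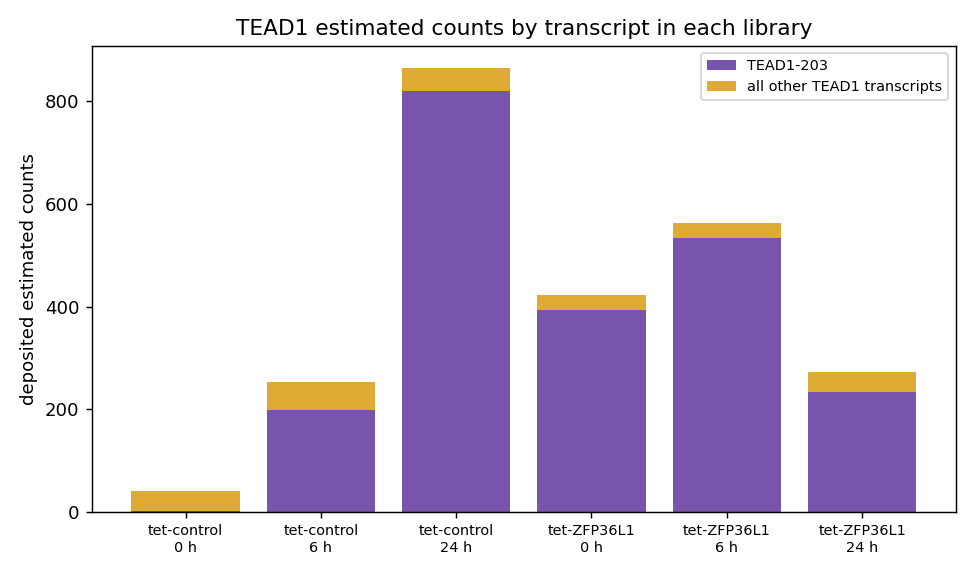
Deposited estimated counts of TEAD1 in each library, divided into TEAD1-203 (purple) and all other TEAD1 transcripts (yellow). The yellow part lies between 28.6 and 53.1 counts in every library, and the purple part ranges from 0.89 in tet-control at 0 h to 819.5 in tet-control at 24 h.

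Genes with a like profile were also named. Over the 6 libraries, the measured protein-coding gene nearest to TEAD1 by Euclidean distance between mean-centred log2 profiles was LUZP1, at a distance of 1.11 among 11070 genes compared. LUZP1, a leucine zipper protein, stood at 1.39, 7.76 and 17.6 CPM in tet-control and 16.4, 30.4 and 5.81 CPM in tet-ZFP36L1. Its counts were divided between long transcripts: LUZP1-203, of 8502 bases, had 0.00, 14.6 and 320.3 estimated counts in tet-control and 173.4, 513.3 and 23.5 in tet-ZFP36L1. LUZP1-201, of 8898 bases, had 18.4, 106.6 and 22.0 in tet-control and 132.1, 44.0 and 87.1 in tet-ZFP36L1, and it held more than LUZP1-203 in 3 of the 6 libraries. After it came PHETA1 at a distance of 1.86 and AC114490.2 at 1.97. The nearest gene to WWTR1 was PFKP, an isoform of phosphofructokinase, at 0.16, followed by YRDC at 0.19 and MANF, a secreted protein of the endoplasmic reticulum, at 0.25. The nearest to STK3 were RAB21 at 0.10, PAQR3 at 0.11 and ZFAND1 at 0.11. The distance grows with the range of a profile, which is wider for TEAD1, so distances are not compared between these genes.

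The other TEAD genes did not follow TEAD1. TEAD2 (ENSG00000074219; GRCh38 chromosome 19, 49340595 to 49362457, minus strand) stood at 60.8, 25.2 and 51.3 CPM in tet-control at 0, 6 and 24 h. Levels in tet-ZFP36L1 were 57.4, 17.7 and 30.3 CPM. It was thus low at 6 h in both lines and nearer its starting level at 24 h, more so in tet-control. From 0 h to 6 h the difference was -1.25 (-1.41 to -1.10) in tet-control and -1.67 (-1.84 to -1.50) in tet-ZFP36L1. Its induction difference was -0.41 (-0.64 to -0.19) at 6 h and -0.67 (-0.85 to -0.49) at 24 h, within 2-fold at both times. The main TEAD2 transcript differed between libraries: before doxycycline TEAD2-201 held 746.8 estimated counts in tet-control and 4.0 in tet-ZFP36L1, where TEAD2-204 held 708.3. These forms are 2164 and 2141 bases long, and the gene's counts in the same libraries were 1225 and 1169.

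TEAD3 (ENSG00000007866; GRCh38 chromosome 6, 35473597 to 35497076, minus strand), at a lower level than TEAD2, was likewise low at 6 h in both lines. TEAD3 stood at 11.8, 5.40 and 10.2 CPM in tet-control and at 11, 6.27 and 13.7 CPM in tet-ZFP36L1. After 24 h in tet-ZFP36L1 TEAD3 was thus above its 0 h level, whereas TEAD2 was below its own. The difference from 0 h at 6 h was -1.05 (-1.37 to -0.74) in tet-control and -0.76 in tet-ZFP36L1. For tet-control the interval reached inside 2-fold, and with the lowest library at 101 counts the depth limits what can be said of it. As an induction difference, TEAD3 was at 0.29 (-0.14 to 0.72) after 6 h and 0.50 (0.15 to 0.85) after 24 h.

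TEAD4 (ENSG00000197905; GRCh38 chromosome 12, 2959330 to 3040673, plus strand) varied least among the TEAD genes. It stood at 44.3, 47.5 and 47.6 CPM in tet-control and at 35.2, 45.3 and 50.7 CPM in tet-ZFP36L1. Its induction difference was 0.26 (0.07 to 0.45) at 6 h and 0.42 (0.23 to 0.61) at 24 h. Summed over the 4 TEAD genes, TPM was 89.4, 69.0 and 94.8 in tet-control and 93.1, 65.4 and 85.7 in tet-ZFP36L1, lowest at 6 h in both lines. TEAD2 made up 47.8% of that sum in tet-control at 0 h and 51.4% in tet-ZFP36L1 at 0 h. At 6 h its share was 30.3% and 19.6%, and TEAD4 then held 60.1% and 65.1%. At 24 h TEAD2 was back to 41.3% in tet-control and stood at 26.3% in tet-ZFP36L1, where TEAD4 held 62.0%.

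**Figure D4:**
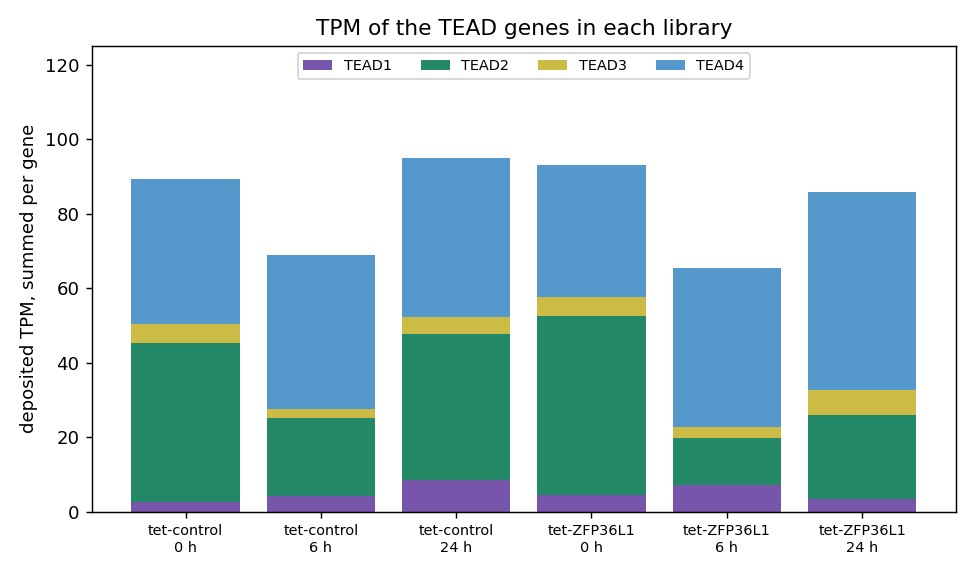
Deposited TPM of the 4 TEAD genes, stacked, in each library. The stack is lowest at 6 h in both lines, with sums of 69.0 and 65.4, and the green part (TEAD2) is smaller at 6 h than at 0 h in each line while the blue part (TEAD4) is not.

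Among the kinases, STK3 (ENSG00000104375; GRCh38 chromosome 8, 98371228 to 98942827, minus strand) encodes MST2, which activates the LATS kinases. It stood at 20.0, 21.8 and 20.9 CPM in tet-control at 0, 6 and 24 h, and at 20.2, 13.1 and 10.3 CPM in tet-ZFP36L1. Both lines were thus level at 0 h and both induced libraries lay below all other libraries. The induction difference of STK3 was -0.73 (-1.03 to -0.44) at 6 h and -1.01 (-1.30 to -0.71) at 24 h. The value at 24 h sat at the 2-fold line: it was past it in 2 of 6 alternatives, and it was -0.84 with plain CPM and -0.33 with the deposited TPM.

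LATS1 (ENSG00000131023; GRCh38 chromosome 6, 149658153 to 149718256, minus strand), a kinase that phosphorylates YAP and TAZ, stood at 62.1, 83.0 and 59.0 CPM in tet-control. Levels in tet-ZFP36L1 were 70.6, 56.2 and 35.6 CPM. At 6 h the lines had differed from 0 h in opposite directions, by 0.42 and -0.33 on the log2 scale. For LATS1 the induction difference was -0.74 (-0.90 to -0.59) at 6 h and -0.91 (-1.08 to -0.74) at 24 h, both within 2-fold. With protein-coding transcripts alone, which leave out LATS1-203, annotated as a target of nonsense-mediated decay, the value was -0.54 at 6 h and -1.02 at 24 h. The deposited TPM gave -0.73 at 6 h and -0.65 at 24 h.

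LATS2 (ENSG00000150457; GRCh38 chromosome 13, 20973032 to 21061547, minus strand), the other LATS kinase and itself a target of YAP and TAZ, behaved alike in both lines. It stood at 58.2, 94.0 and 58.8 CPM in tet-control and at 64.5, 88.3 and 65.8 CPM in tet-ZFP36L1. It was thus highest at 6 h in each line, by 0.69 and 0.45 on the log2 scale, and near its starting level at 24 h. For LATS2 the induction difference was -0.24 (-0.38 to -0.09) at 6 h and 0.01 (-0.14 to 0.17) at 24 h. LATS2 and LATS1, with unlike values at 24 h, each hold 1 TATTTAT word in the transcript searched. The regions searched differ in length, at 1838 and 3576 bases, and the part of the word in these values was not tested.

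AMOTL2 (ENSG00000114019; GRCh38 chromosome 3, 134355874 to 134375479, minus strand) encodes an angiomotin-like scaffold that binds and retains YAP and TAZ. It stood at 173.3, 241.4 and 171.0 CPM in tet-control and at 158.5, 150.4 and 110.1 CPM in tet-ZFP36L1. Its level at 6 h was above that at 0 h in tet-control, by 0.48 on the log2 scale, but not in tet-ZFP36L1, where the difference was -0.08. For AMOTL2 the induction difference was -0.55 (-0.65 to -0.46) at 6 h and -0.50 (-0.61 to -0.40) at 24 h. Since AMOTL2 and LATS2 are known targets of TEAD factors, promoters were searched for the core TEAD word GGAATG and its reverse complement CATTCC.

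Promoter windows from 250 bases before to 50 bases after an annotated start were taken from RefSeq (GRCh38.p14), where 7 of the 10 genes had a window, 11 windows in all. The word was found in 3 of the 11, against 14.03% of all 35116 windows: 1 of 2 windows of AMOTL2 and the only window each of LATS2 and YAP1. The 2 windows of LATS1, which like AMOTL2 and LATS2 stood higher at 6 h in tet-control, held 0 copies, as did those of WWTR1, TEAD2 and TEAD3. The AMOTL2 and LATS2 windows are shown with the word in capitals. A match says only that the letters are present, and TEAD binding was not measured here.

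AMOTL2, chr3:134374398-134374697, minus strand, word 69 bases before the start: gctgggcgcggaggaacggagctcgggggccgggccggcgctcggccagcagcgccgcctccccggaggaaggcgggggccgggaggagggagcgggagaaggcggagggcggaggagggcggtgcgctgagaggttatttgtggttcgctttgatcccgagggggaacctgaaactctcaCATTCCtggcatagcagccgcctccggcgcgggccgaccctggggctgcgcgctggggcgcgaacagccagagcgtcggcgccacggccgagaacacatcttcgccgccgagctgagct
LATS2, chr13:21061537-21061836, minus strand, word 9 bases after the start: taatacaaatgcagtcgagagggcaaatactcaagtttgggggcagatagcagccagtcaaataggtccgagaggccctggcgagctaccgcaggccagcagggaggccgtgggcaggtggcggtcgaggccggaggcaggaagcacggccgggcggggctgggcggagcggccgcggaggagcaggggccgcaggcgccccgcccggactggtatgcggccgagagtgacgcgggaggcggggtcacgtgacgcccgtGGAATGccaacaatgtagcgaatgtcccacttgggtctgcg

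The lines were also compared without the subtraction. In tet-control, 2 of the 10 genes were lower by 2-fold at 6 h (TEAD2 and TEAD3) and 1 was higher (TEAD1), where 2.23% of all measured genes were lower and 2.43% higher. At 24 h in tet-control, 0 of the 10 were lower and TEAD1 alone was higher, where 0.428% of all genes were lower and 0.378% higher. In tet-ZFP36L1, TEAD2 alone was lower at 6 h and 0 were higher (5.43% and 2.10% of all genes). At 24 h in tet-ZFP36L1, WWTR1 alone was lower and 0 were higher (6.23% and 3.38% of all genes). Between the lines at 0 h, 0 of the 10 were lower in tet-ZFP36L1 and TEAD1 alone was higher (2.77% and 5.05% of all genes). Apart from TEAD1 and WWTR1, the genes differed between uninduced lines by -0.33 to 0.19 on the log2 scale.

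The rest of the pathway was read from 6 lists, with 80 genes measured. Over them, 5 were lower and 2 higher by 2-fold at 6 h, and 4 lower and 3 higher at 24 h, to be read against 4.69% lower and 1.60% higher of all genes at 6 h and 6.50% and 4.69% at 24 h. In a list of 11 to 19 measured genes, 1 gene lower by 2-fold is near the share of all genes. Among 17 other Hippo kinases and adaptors, 16 were measured, and 2 were higher and 0 lower by 2-fold at both times. The list's median induction difference was -0.34 at 6 h and -0.24 at 24 h. STK4, which encodes MST1, the closest relative of STK3, stood at 171.7, 199.4 and 153.9 CPM in tet-control and at 122.4, 801.7 and 572.4 CPM in tet-ZFP36L1. Its induction difference was 2.49 (2.40 to 2.58) at 6 h and 2.38 (2.28 to 2.47) at 24 h, opposite in direction to STK3. Both of its main transcripts took part: in tet-ZFP36L1, STK4-202 went from 2458 to 11226 estimated counts over the first 6 h, and STK4-205, annotated as a target of nonsense-mediated decay, from 22.5 to 3379. The related kinase TNIK had an induction difference of 1.57 (1.09 to 2.06) after 6 h and 1.05 (0.63 to 1.47) after 24 h, from levels of 2.30 to 18.4 CPM. Its value at 6 h included a difference of -1.27 within tet-control. MAP4K5, a kinase that can act beside the MST kinases on LATS, was at -0.96 and -0.69. The LATS co-activators MOB1A and MOB1B, at -0.45 and -0.67 at 6 h and -0.64 and -0.79 at 24 h, and the tumour suppressor NF2, at -0.07 and -0.43, stayed within 2-fold.

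Of 20 scaffold and polarity genes, 19 were measured, with medians of -0.03 at 6 h and 0.12 at 24 h. WWC2, a relative of the upstream regulator KIBRA, was lower by 2-fold at 6 h, at -1.05 (-1.19 to -0.90), and stood at -0.92 at 24 h. The atypical cadherin FAT4 was at 0.95 at 6 h and -0.06 at 24 h, and the polarity scaffold DLG1 at -0.84 and -0.51. No other gene of the list passed 2-fold at either time. The phosphatase complex STRIPAK, which holds the MST kinases inactive, had 14 of 14 genes measured, with medians of -0.39 and -0.56. STK26, a kinase of that complex, had an induction difference of -1.01 (-1.19 to -0.83) after 6 h and -1.36 (-1.54 to -1.18) after 24 h. MOB4, another subunit, was at -0.76 at 6 h and -1.63 (-1.88 to -1.37) at 24 h. The striatin STRN3, a core scaffold of the complex, lay just within 2-fold at -0.96 and -0.97. The genes past 2-fold were 1 of 14 genes lower at 6 h and 2 of 14 at 24 h, and 0 were higher. Of all measured genes, 4.69% were lower at 6 h and 6.50% at 24 h.

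Of 4 VGLL cofactors, which bind TEAD factors in place of YAP, VGLL1 and VGLL2 were at 0 in every library. The value of VGLL3 was 0.42 (0.09 to 0.76) after 6 h and 1.24 (0.84 to 1.63) after 24 h, and VGLL4 was at -0.34 and 0.34. VGLL3 stood at 9.93, 23.9 and 6.83 CPM in tet-control and at 7.96, 26.1 and 13.5 CPM in tet-ZFP36L1, so it was highest at 6 h in both lines. Among 11 genes of YAP and TAZ turnover and cytoplasmic retention, all 11 were measured, with medians of -0.09 and -0.64. The 14-3-3 gene YWHAG was lower by 2-fold at 24 h, at -1.34 (-1.41 to -1.26), and stood at -0.97 at 6 h. Its relatives, YWHAH and YWHAZ, were at -0.99 and -0.88 at 24 h and at -0.78 and -0.18 at 6 h. YWHAG was 1 of 11 lower at 24 h, near the 6.50% of all measured genes, with 0 lower at 6 h and 0 higher at either time.

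Targets of YAP, TAZ and TEAD were read from 22 genes, which include AMOTL2 and LATS2. Of the other 20, 19 were measured, with 3 lower and 0 higher by 2-fold at 6 h and 1 lower and 0 higher at 24 h. Among all measured genes, 4.69% were lower and 1.60% higher at 6 h, and 6.50% lower and 4.69% higher at 24 h. As a median, these targets stood at -0.41 after 6 h and -0.12 after 24 h. Within tet-control their median difference from 0 h at 6 h was 0.41, against -0.01 for all measured genes. There 4 of the 19 were higher by 2-fold, where 2.43% of all genes were. Within tet-ZFP36L1 the median of the targets was 0.09, so their induction difference at 6 h came mostly from tet-control. CRIM1, a transmembrane protein that binds bone morphogenetic proteins, stood at 608.3, 965.0 and 636.8 CPM in tet-control and at 628.8, 360.8 and 263.8 CPM in tet-ZFP36L1. Its induction difference was -1.47 (-1.52 to -1.41) at 6 h and -1.32 (-1.37 to -1.26) at 24 h. IGFBP3, a binding protein of insulin-like growth factors, was at -1.71 (-1.99 to -1.42) after 6 h and -0.80 after 24 h. The growth factor TGFB2 was at -1.08 (-1.31 to -0.86) and -0.84. For IGFBP3 and TGFB2 the value at 6 h came from tet-control, where 6 h differed from 0 h by 1.71 and 1.66, while the same differences within tet-ZFP36L1 were -0.001 and 0.58. The matricellular genes most used as readouts did not share a direction: CCN2 was at 0.44 and 0.67, and CCN1 at -0.24 and -0.57. ANKRD1, a further common readout, was at -0.41 and 0.59.

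**Figure D5:**
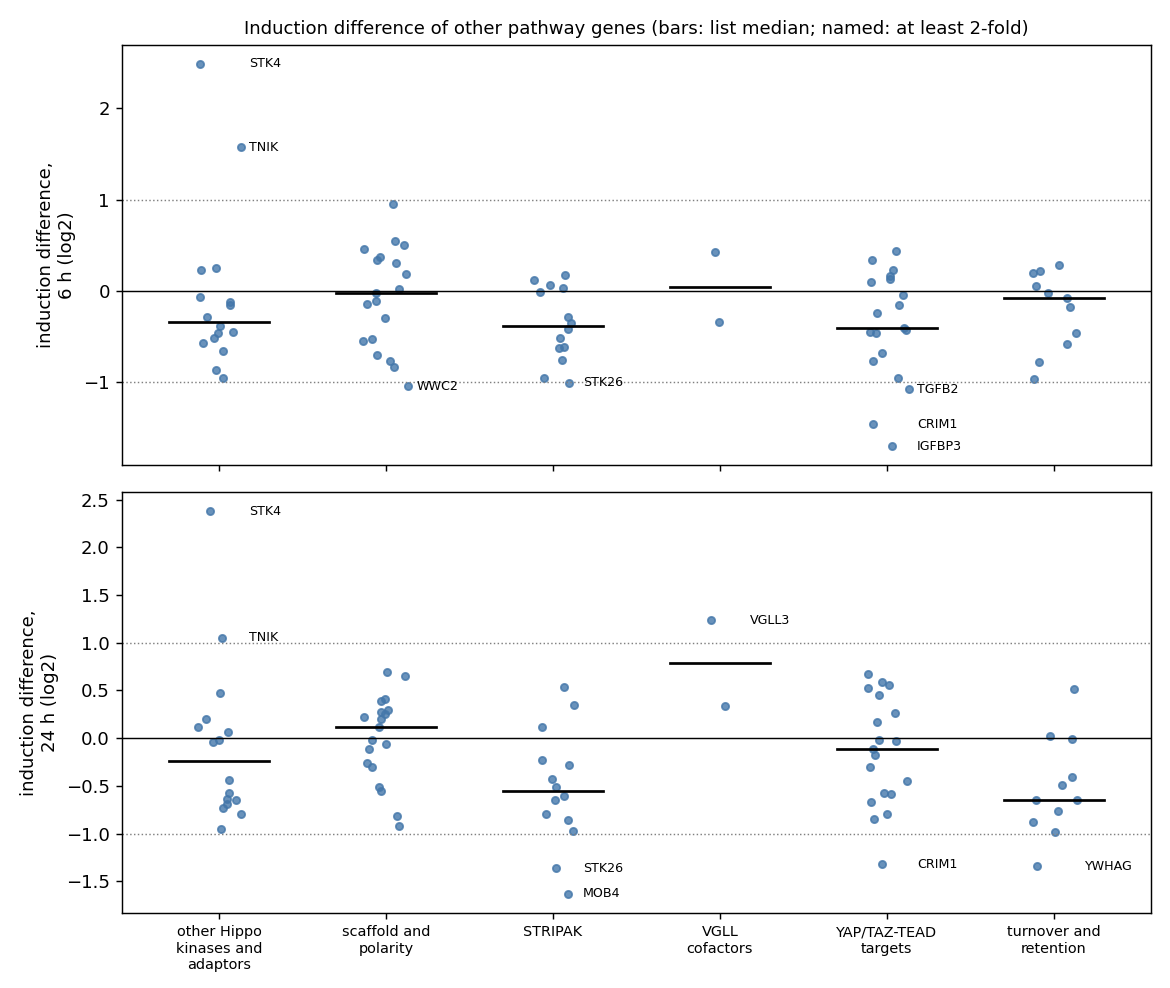
Induction difference (log2) at 6 h (top) and 24 h (bottom) of the measured genes of the 6 pathway lists, without the 10 genes described above; PTPN14 is on 2 lists. Each point is a gene, black bars are list medians, dotted lines mark 2-fold, and genes past 2-fold are named. STK4 lies highest at both times, at 2.49 and 2.38, apart from the other kinases.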

How the data were processed

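Per the labels' protocols, column-purified total RNA from 6 J82 cultures was read on a BGISEQ-500 instrument; groups were assigned from sample titles. Tools in the submitters' processing notes are kallisto and DESeq2, and the build is hg19. The deposited tables give estimated counts, which need not be whole, for 196354 transcripts, and the deposited TPM values are scaled by the authors for length and depth. By identifier, transcripts were assigned to genes of GENCODE 29, on GRCh38 (181857 matched; the unmatched held 5.12% to 5.46% of counts), and no coordinate was converted. The sources used here do not give whether counting used strand. Among the 10 genes, at most 2.57% of 31-base words occur in matched transcripts of a gene outside them. Estimated counts were summed per gene, rounded and scaled by TMM (edgeR 4.0.16) on genes averaging 10 counts or more. Differences are on log2(CPM + 0.5), which understates changes of low genes, over 11909 genes averaging 50 counts or more. Intervals are delta-method 95% intervals from the counts, and without molecular identifiers reads may repeat molecules.

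With 1 library per group, no count test was run. An additive model was not fitted, since it takes both lines to respond alike. The 2-fold rule and the intervals were tested on simulated data. The simulated counts held counting error only, so that check says nothing of variation between cultures. The genes, lists and rules were chosen with earlier results of these data known. Text names all 10 genes, list genes past 2-fold, the 3 largest per list (PTPN14 is on 2 lists), the 3 nearest profiles, ZFP36L1, and TEAD1 transcripts. MOB1A, MOB1B, NF2, CCN1, CCN2 and ANKRD1 were added for their known roles, after their values were seen. Alternatives were DESeq2 1.42.0 size factors, plain CPM, deposited TPM, pseudocounts of 1 and 5, protein-coding transcripts alone, a 1.5-fold threshold, other count minimums, the longest 3' untranslated region, and 2 added after seeing the data: TEAD1 without TEAD1-203, and levels also having to differ 2-fold between lines at that time.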

Additional observations from a re-analysis of the deposited data

Results flagged for a closer look

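For WWTR1, LATS1 and AMOTL2 at 6 h and TEAD1 at 24 h, the difference from the gene's own 0 h level had opposite signs in the 2 lines. Each counting interval left out 0, for AMOTL2 in tet-ZFP36L1 only just (-0.15 to -0.003). The share of all measured genes that did so was not counted, so these cases only describe single genes. The differences were not tested, since each group is 1 library. WWTR1 differed by 0.19 in tet-control and -0.91 in tet-ZFP36L1 at 6 h. LATS1 differed by 0.42 and -0.33 at 6 h. AMOTL2 differed by 0.48 and -0.075 at 6 h. TEAD1 differed by 4.16 in tet-control and -0.72 in tet-ZFP36L1 at 24 h, with the variation in TEAD1-203.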

How the results depend on the processing

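Each group holds 1 library with no replicate number to block on; pairing the lines by time in an additive fit was not done. At 2-fold, the induction difference counted 2 of the 10 genes at 6 h; it counted 1 with the deposited TPM, 1 with a pseudocount of 5, 1 without TEAD1-203, 1 when the level also had to differ by 2-fold from tet-control at 6 h, and 4 at 1.5-fold (14.3% of all genes lower and 7.02% higher). At 24 h it counted 3, and 5 at 1.5-fold (17.4% of all genes lower and 13.9% higher), 4 with protein-coding transcripts alone, and 2 with plain CPM, the deposited TPM, either other pseudocount, without TEAD1-203, or when the level also had to differ by 2-fold from tet-control at 24 h. Differences from 0 h in tet-control counted 3 at 6 h (1 from the deposited TPM, 2 with a pseudocount of 1 or 5 or without TEAD1-203). At 1.5-fold they counted 4 at 6 h, where 7.72% of all genes were lower and 7.47% higher. At 24 h they counted 1, or 0 without TEAD1-203. Differences from 0 h in tet-ZFP36L1 counted 1 at 6 h, 2 with the deposited TPM or protein-coding transcripts alone, and 4 at 1.5-fold (15.6% of all genes lower and 9.09% higher). They counted 1 at 24 h, 2 with the deposited TPM and 5 at 1.5-fold (17.0% of all genes lower and 11.8% higher). Between lines at 0 h the count was 1, or 0 with the deposited TPM or without TEAD1-203. Without TEAD1-203 the induction difference of TEAD1 at 24 h was 0.0032, against -4.87.

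Of the 80 other pathway genes measured, 5 were lower at 6 h, 2 with a pseudocount of 5 and 19 at 1.5-fold, and 2 were higher, 1 with a pseudocount of 5. At 24 h, 4 were lower, 25 at 1.5-fold, and 3 were higher, 1 with a pseudocount of 5 and 7 at 1.5-fold. Plain CPM moved the median of all genes at 24 h from -0.02 to 0.15 and the deposited TPM moved it to 0.10. The median of the 10 genes at 24 h moved from -0.59 to -0.42 and -0.41 with these, and to -0.30 without TEAD1-203. Of the 20 induction differences of the 10 genes, 12 moved outside their counting interval with the deposited TPM, 5 with plain CPM, 5 with protein-coding transcripts alone, 2 with a pseudocount of 5, and 0 with DESeq2 size factors or a pseudocount of 1. The causes were not tested. Counts of 40 for TEAD1 and 101 for TEAD3 limit what depth can show for those genes.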
